A study of Mus musculus with 12 samples.

Results

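The genes described here encode matrix glycoproteins, proteoglycans, the enzymes that cross-link elastin and collagen, and a few proteins that mark fibroblasts. They were taken by symbol from a fixed list of 37 genes, and all 37 were found among the 24964 genes of the deposited count table. By role, 10 belong to elastic fibres and microfibrils, 5 are lysyl oxidases, 8 are adhesive or matricellular glycoproteins, 7 are proteoglycans, 1 (Nid1) links basement membrane components and 6 are fibroblast markers. All 37 passed the filter on low counts, so none was left out of the tests.

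The study sequenced RNA of mouse uterine tissue at 13.5 days post coitum (dpc) in 12 libraries, 4 in each of 3 groups. Control tissue had the genotype Myh11Cre, the PGR-A OE group Myh11Cre with LSLPGRA/+, and the PGR-B OE group Myh11Cre with LSLPGRB/+, so every group carried the Cre driver. Myh11 is a smooth muscle myosin gene, and the series describes the OE groups as overexpressing isoform A or isoform B of the progesterone receptor in the myometrium. Smooth muscle is one of several cell types in uterine tissue. The labels give neither the age of the mice nor whether libraries of the same group are from different mice, so p-values measure the spread between these libraries, part of which may be technical.

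Between and around the muscle bundles of the uterus, fibroblasts lay down a matrix that takes up load during pregnancy and is rebuilt as the organ grows. Elastic fibres consist of an elastin core on a scaffold of fibrillin microfibrils, and lysyl oxidases join elastin and collagen chains covalently. Small leucine-rich proteoglycans such as decorin, lumican, biglycan and fibromodulin bind collagen fibrils and affect their diameter, whereas matricellular proteins such as SPARC, tenascin C and the thrombospondins act on cells and on matrix assembly more than as structural parts. Progesterone acts through 2 receptor isoforms made from the gene Pgr, of which isoform B is the longer.

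Library totals ran from 31872534 to 33078483 counts. Levels are given as counts per 1000000 (CPM) of a library size scaled with TMM (trimmed mean of M-values). Pgr itself was between 106 and 142 CPM in the control libraries, 166 and 255 CPM in those of PGR-A OE and 188 and 248 CPM in those of PGR-B OE, above every control library in both OE groups. PGR-A OE replicate 4 was far from the rest on the first principal component (25.2% of the variance), with a score of -55.7 where the other libraries had -8.8 to 31.3. In that library the decidual prolactin gene Prl8a2 was at 5.02 CPM, against 173.6 to 5054 CPM elsewhere, with the highest value in control replicate 4. Over all 37 genes PGR-A OE replicate 4 held the highest value of the 12 libraries for 9, and control replicate 4 the lowest for 12. The shares of all genes for which these libraries were highest or lowest were not computed. For the members found to depend most on these libraries, values without them are given as well.

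Marker lists of the cell types that uterine tissue can hold also moved with the groups. The summed level of 10 smooth muscle markers was 12327 to 16222 CPM in control tissue, 16649 to 22931 CPM in PGR-A OE tissue (highest in replicate 4) and 11982 to 15825 CPM in PGR-B OE tissue. A fibroblast list made of 10 genes outside the 37, mostly collagens, summed to 37790 to 40016 CPM in the control libraries. It summed to 44122 to 55722 CPM in those of PGR-A OE and 44470 to 55214 CPM in those of PGR-B OE, so that neither OE group overlapped control. Most of this sum came from Col1a1, Col1a2 and Col3a1, with control means of 11649, 10539 and 10529 CPM. Thy1, Cd34 and Ly6a, the markers on the list that are not collagens, overlapped control in both OE groups, as did the collagen gene Col6a1. The log2 differences of Thy1, Cd34 and Ly6a were 0.15, 0.15 and -0.15 in PGR-A OE and 0.33, -0.03 and -0.08 in PGR-B OE. Thy1 in PGR-B OE had an unadjusted p of 0.00936 and an adjusted p of 0.355 by edgeR. In PGR-A OE against control 9 of the 10 genes on this list had a positive log2 difference and 2 passed the test (0.655% of all genes did). These were the collagen genes Col14a1 (0.49, adjusted p = 0.0417 by edgeR) and Col15a1 (0.90, adjusted p = 0.0392 by edgeR). In PGR-B OE 8 of 10 were positive and none passed by edgeR, with 6 at an unadjusted p under 0.05 (9.28% of all genes). Of the mural cell markers only Cspg4 passed, in PGR-A OE (0.49, adjusted p = 0.0251 by edgeR). The 5 decidual markers in the table summed to 285 to 5227 CPM in control tissue, 112 to 1419 CPM in PGR-A OE tissue and 852 to 1109 CPM in PGR-B OE tissue. Endothelial, mural, epithelial, leukocyte and mesothelial sums overlapped between the groups. The epithelial sum was highest in PGR-A OE replicate 4, at 2527 CPM against at most 2108 CPM elsewhere. In that library Ltf was at 1373 CPM, against at most 321 CPM elsewhere, while Epcam (202 CPM) and Cdh1 (187 CPM) were at their lowest of the 12 libraries. Trophoblast and yolk sac markers summed to at most 14.8 CPM in any library, and the globin genes Hba-a1, Hbb-bs and Hbb-bt were at 0 in all 12. The part of these cell types in the differences described below was not tested, and in bulk tissue fewer cells of a type and less RNA per cell cannot be told apart.

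Together the 37 genes made up 2.26% to 2.86% of the scaled library. In control, the level per kilobase of gene length was highest for Sparc, which encodes a collagen-binding matricellular protein, at 2476 ± 127 CPM per kb (SD, n = 4). Next came Postn (periostin, 745 ± 190), Dcn (decorin, 644 ± 95.2), Bgn (biglycan, 591 ± 131), Fbln1 (fibulin 1, 490 ± 42.6) and Fn1 (fibronectin, 349 ± 63.4), all in CPM per kb. The 6 members with the most counts took 67.2% of the summed control CPM of all 37. At the other end were Thbs2 (thrombospondin 2, 7.06 ± 1.33 CPM per kb), Vcan (versican, 5.56 ± 0.256), Fbn2 (fibrillin 2, 3.46 ± 0.572) and Loxl4 (lysyl oxidase-like 4, 2.32 ± 1.94). Of the 36 pairs of neighbours in this order, 30 overlapped in their control libraries, while the step from Sparc to Postn was among those without overlap. Across all 12 libraries the ratio of highest to lowest CPM had a median of 1.92 and was below 2 for 20 genes. It was at least 3 for 5 genes, Clec3b (6.79), Abi3bp (5.16), Loxl4 (4.67), Pi16 (3.55) and Fmod (3.28).

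**Figure D1:**
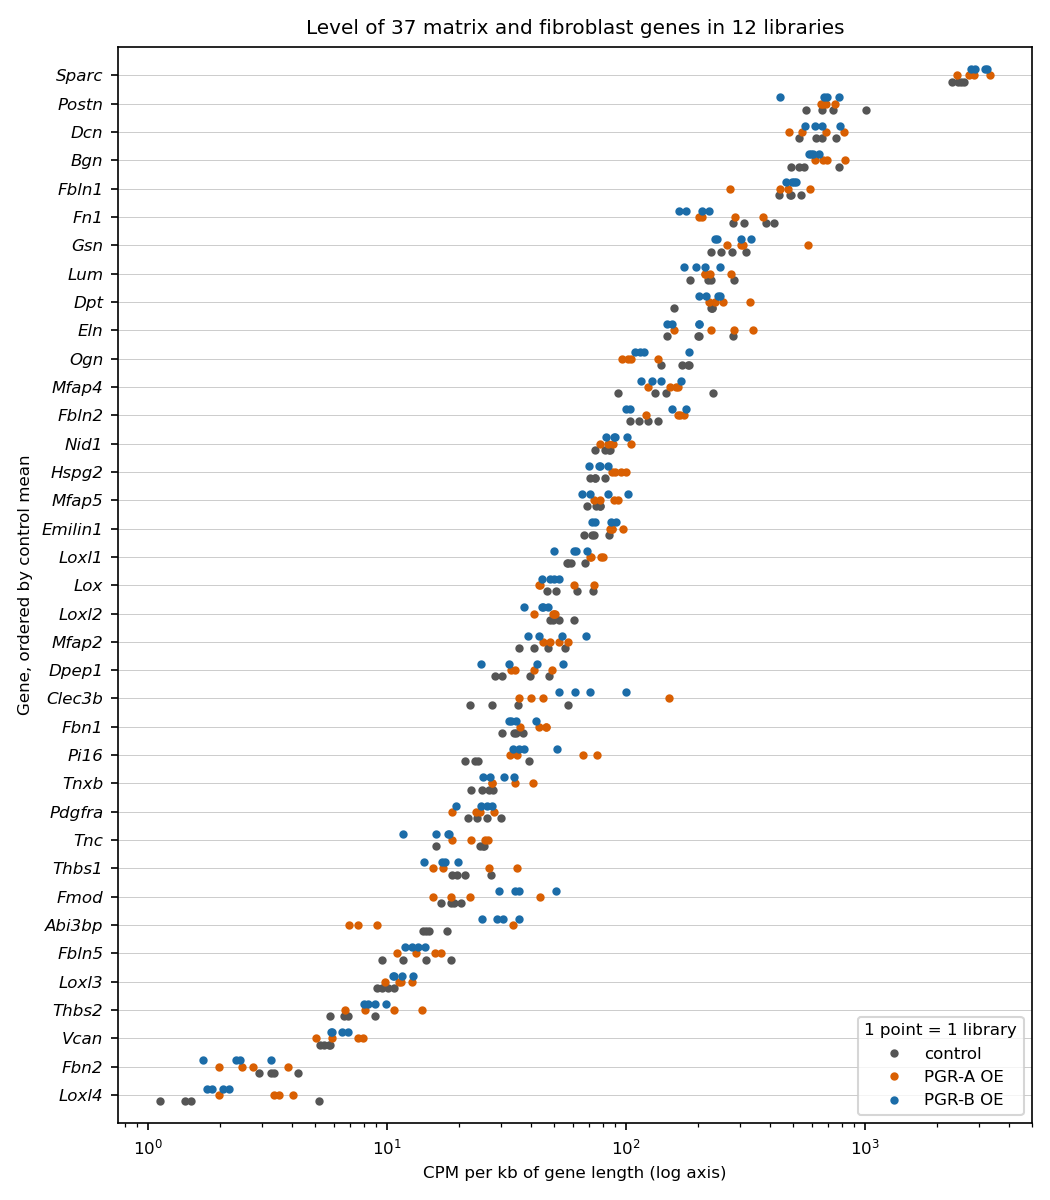
CPM per kilobase of gene length (log axis) of each of the 37 genes, ordered by control mean, with 1 point for each library and a colour for each group. Sparc lies above all others, at 2476 CPM per kb in control, Loxl4 is lowest at 2.32, and the points of Clec3b, Abi3bp, Loxl4, Pi16 and Fmod span the widest ranges.

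In PGR-A OE against control, most of the 37 genes were slightly higher and none passed the test. Pi16 had the largest positive difference and Ogn the largest negative one, and Emilin1, Loxl1 and Hspg2 lay above control in all 4 libraries. By edgeR's quasi-likelihood test, adjusted over all 15561 genes tested, 0 of 37 were called, where 0.655% of all genes were. At an unadjusted p under 0.05 stood 8 genes with a positive difference (Fbn1, Emilin1, Loxl1, Loxl3, Tnxb, Thbs2, Hspg2 and Pi16) and 1 with a negative one (Ogn), together 24.3% of the 37 beside 15.4% of all genes tested (7.56% positive and 7.87% negative). The groups of 4 libraries did not overlap for 4 genes, 3 above and 1 below, a share of 10.8% beside 10.6% of all genes (5.01% above and 5.57% below), which is near that background. A positive log2 difference was found for 27 of 37, or 73.0% beside 50.1% of all genes, and the median was 0.17 beside 0.00 over all genes tested. With replicate 4 of both groups left out, the libraries singled out above, the median of the 37 was 0.058. DESeq2 called 3 members, Hspg2 and Pi16 higher and Ogn lower, where it called 3.64% of all genes. After adjustment limma voom called 0 of 37, and 0.611% of all genes. It had 8 members at an unadjusted p under 0.05, but its share of all genes at that threshold was not computed.

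In PGR-B OE against control the differences went both ways. Fmod, Abi3bp and Sparc lay above all control libraries, and Fn1 and Loxl2 below all of them. No member passed by edgeR, where 0.308% of all genes were called. An unadjusted p under 0.05 was found for 5 positive differences (Loxl3, Sparc, Abi3bp, Fmod and Clec3b) and 4 negative ones (Fbn2, Loxl2, Fn1 and Tnc), 24.3% of the 37 beside 9.28% of all genes (4.69% positive and 4.59% negative). The groups did not overlap for 6 members, 4 above (Sparc, Abi3bp, Fmod and Vcan) and 2 below, 16.2% of the 37 beside 5.67% of all genes (3.07% above and 2.6% below). A positive difference was found for 23 of 37, or 62.2% beside 48.8%, with a median of 0.04 beside -0.01 for all genes. That median was -0.02 without control replicate 4 and 0.14 without control replicate 3, so its size moved with single control libraries and its sign with control replicate 4. DESeq2 called Fmod higher and Fn1 lower, where it called 1.43% of all genes. After adjustment limma voom called 0 of 37, and 0.244% of all genes. It had 10 members at an unadjusted p under 0.05, but its share of all genes at that threshold was not computed.

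Compared directly, PGR-B OE lay below PGR-A OE for most members. Again 0 of 37 passed by edgeR, where 0.116% of all genes were called, and limma voom and DESeq2 called none either (0.135% and 0.813% of all genes). At an unadjusted p under 0.05 were 7 members by edgeR, 18.9% of the 37 beside 8.04% of all genes (3.28% higher and 4.76% lower). These were Abi3bp, which was higher, and Eln, Fbn1, Loxl1, Fn1, Tnc and Hspg2, which were lower. At the same threshold limma voom had 7 members and DESeq2 9, and their shares of all genes at it were not computed. Only Loxl1, Tnc and Hspg2 did not overlap between the groups, all below, a share of 8.11% beside 3.85% of all genes (1.5% above and 2.35% below). The difference was positive for 11 of 37, or 29.7% beside 51.2% of all genes, and its median was -0.15 beside 0.00. Because both OE groups are compared with the same 4 control libraries, and the 3 comparisons use the same 12 libraries, their values are given side by side and not as support for one another.

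**Figure D2:**
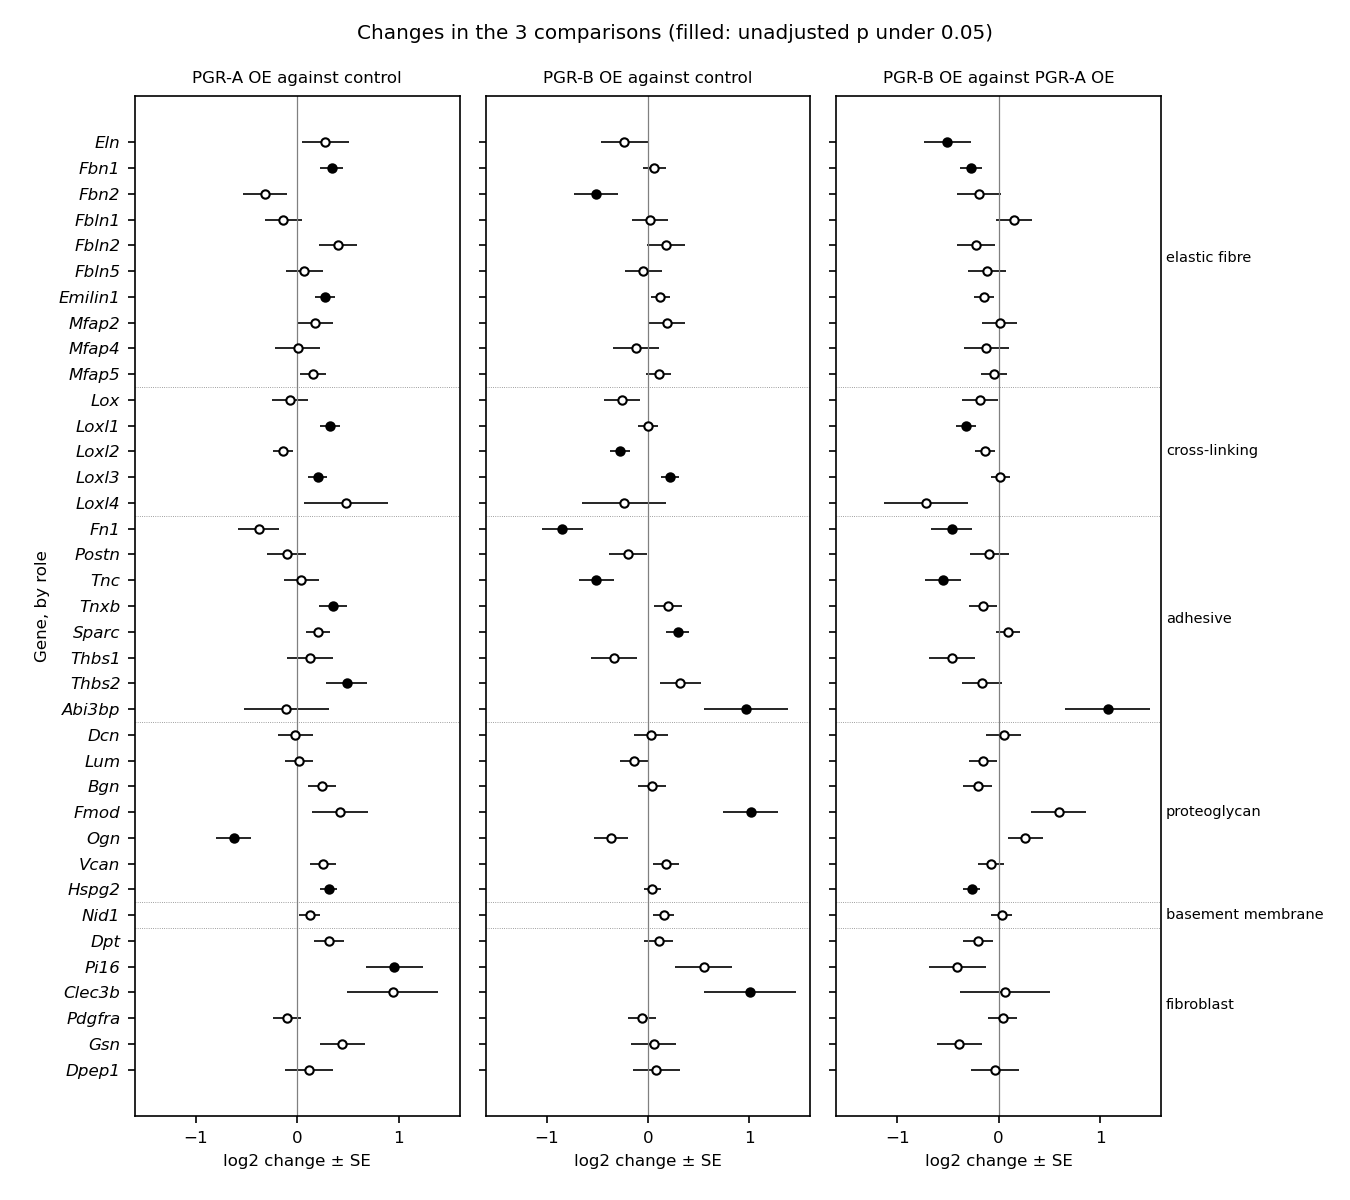
The log2 difference (horizontal axis, bars ± SE) of each of the 37 genes in the 3 comparisons, in order of role, from edgeR's fit of all 12 libraries. Filled points, 9, 9 and 7 from left to right, had an unadjusted p under 0.05, and none passed after adjustment over all genes.

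Among the 10 elastic fibre and microfibril genes, 8 had a positive difference in PGR-A OE, 6 in PGR-B OE and 2 for PGR-B OE against PGR-A OE. Emilin1 (chromosome 5, 30913402 to 30921277 in GRCm38), which encodes a glycoprotein at the interface of elastin and microfibrils, was at 254.7, 230.5, 249.1 and 295.5 CPM in the control libraries, 304.6, 297, 303.3 and 335.9 CPM in those of PGR-A OE and 300.0, 256.6, 250.1 and 314.6 CPM in those of PGR-B OE. All PGR-A OE libraries lay above all control libraries, the nearest pair being 295.5 and 297 CPM, while PGR-B OE overlapped both groups. The log2 difference of Emilin1 was 0.27 in PGR-A OE (SE 0.10, adjusted p = 0.225 by edgeR) and 0.12 in PGR-B OE (adjusted p = 0.765). Fbn1, which encodes the main microfibril protein fibrillin 1, was at 299 to 366 CPM in control and 356 to 459 CPM in PGR-A OE, so the groups overlapped by 1 library on each side, with a difference of 0.34 (adjusted p = 0.183 by edgeR). Its exons share 20.1% of their bases with another gene model, so its counts are uncertain. Fbn2, the fibrillin typical of developing tissue, had differences of the other sign, -0.32 in PGR-A OE and -0.51 in PGR-B OE (adjusted p = 0.508 and 0.503 by edgeR). Eln (elastin) was at 571 to 1079 CPM in control tissue, 611 to 1308 CPM in PGR-A OE tissue and 572 to 781 CPM in PGR-B OE tissue, with overlap in each comparison. For the fibulins Fbln1, Fbln2 and Fbln5, which tether elastin and other matrix proteins, and the microfibril-associated genes Mfap2, Mfap4 and Mfap5, differences from control ran from -0.14 to 0.40 when isoform A and from -0.12 to 0.19 when isoform B was overexpressed.

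The 5 lysyl oxidase genes did not move together. Loxl1 (chromosome 9, 58287738 to 58313186), whose enzyme is needed for elastic fibre renewal, was at 191.7, 196.5, 226.3 and 189.8 CPM in the control libraries, 238.3, 263.4, 267.1 and 236.4 CPM in those of PGR-A OE and 207.4, 166.6, 201.8 and 229.5 CPM in those of PGR-B OE. The PGR-A OE libraries lay above all 8 others. Its log2 difference was 0.32 in PGR-A OE against control (SE 0.10, adjusted p = 0.161 by edgeR), 0.00 in PGR-B OE against control, and -0.32 between the OE groups (PGR-B OE minus PGR-A OE; SE 0.10, adjusted p = 0.423). Loxl2 (chromosome 14, 69609068 to 69695834), whose enzyme acts on basement membrane collagen, was at 256.8, 248.6, 315.0 and 272.6 CPM in control tissue, 260.4, 260.8, 256.3 and 214.2 CPM in PGR-A OE tissue and 194.0, 245.2, 232.7 and 231.9 CPM in PGR-B OE tissue. All PGR-B OE libraries lay below all control libraries, with 245.2 and 248.6 CPM as the nearest pair and a difference of -0.27 (SE 0.10, adjusted p = 0.435 by edgeR), and 5.70% of its exon bases are shared with other gene models. Lox and Loxl3 overlapped in each comparison, with differences between -0.26 and 0.22. Of the exon bases of Loxl3, 11.6% are shared with the coding gene Htra2 on the opposite strand, so its counts are uncertain. Loxl4, a gene of low level, was at 7.80, 8.24, 28.4 and 6.07 CPM in the control libraries, 19.3, 18.3, 22.1 and 10.8 CPM in those of PGR-A OE and 9.59, 10.1, 11.9 and 11.2 CPM in those of PGR-B OE. One control library, replicate 3, lay above all others. With replicate 3 the difference in PGR-A OE was 0.48 (adjusted p = 0.607 by edgeR). Without replicate 3 it was 1.26 (SE 0.22, adjusted p = 0.0293 by edgeR) and passed, in a fit that called 0.504% of all genes. Leaving out the highest control library could only raise the difference, and this omission was singled out after the values were seen.

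The adhesive and matricellular glycoproteins held the member with the lowest p in PGR-B OE. Fn1 (chromosome 1, 71585520 to 71653200) encodes fibronectin, the adhesive protein on which cells assemble other matrix. It was at 2360, 3515, 3249 and 2636 CPM in control tissue, 1706, 1758, 2410 and 3161 CPM in PGR-A OE tissue and 1504, 1761, 1412 and 1876 CPM in PGR-B OE tissue. Every PGR-B OE library lay below every control library, whereas PGR-A OE was divided, with replicates 1 and 2 below control and replicates 3 and 4 among the control values. The log2 difference of Fn1 was -0.84 in PGR-B OE against control (SE 0.20, adjusted p = 0.148 by edgeR), -0.38 in PGR-A OE against control (adjusted p = 0.382) and -0.46 between the OE groups. Without PGR-A OE replicate 4 that in PGR-A OE was -0.59 (adjusted p = 0.172 by edgeR), and without replicate 3 it was -0.41 (adjusted p = 0.383). DESeq2 called Fn1 lower in PGR-B OE (adjusted p = 0.00394); when each of the 8 control and PGR-B OE libraries was left out in turn, the edgeR difference stayed between -0.93 and -0.74. An antisense model shares 2.50% of its exon bases.

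Tnc (chromosome 4, 63959785 to 64047015) encodes tenascin C, an anti-adhesive glycoprotein of tissue under remodelling. It was at 113.8, 178.5, 180.3 and 173.8 CPM in the control libraries, 182.7, 188.8, 159.7 and 133.2 CPM in those of PGR-A OE and 83.0, 113.5, 128.0 and 129.6 CPM in those of PGR-B OE. PGR-B OE lay below all PGR-A OE libraries and below 3 of the 4 control libraries, control replicate 1 being as low as PGR-B OE. The difference was -0.51 against control (SE 0.17, adjusted p = 0.398 by edgeR) and -0.55 against PGR-A OE (SE 0.17, adjusted p = 0.450), and an overlapping transcript shares 2.26% of the exon bases. Sparc (chromosome 11, 55394500 to 55423183) was at 6499, 6677, 6886 and 6098 CPM in control tissue, 7194, 6422, 7588 and 8875 CPM in PGR-A OE tissue and 7647, 8604, 7384 and 8388 CPM in PGR-B OE tissue. All PGR-B OE libraries lay above control, by a log2 difference of 0.29 (SE 0.12, adjusted p = 0.467 by edgeR). Its control mean was 6540 ± 335 CPM and its PGR-B OE mean 8006 ± 583 CPM (SD, n = 4).

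Abi3bp (chromosome 16, 56477878 to 56690135), which encodes a collagen-binding matrix protein, had the most divided pattern. It was at 69.1, 84.4, 71.2 and 67.4 CPM in the control libraries, 35.8, 32.9, 43.2 and 159.3 CPM in those of PGR-A OE and 137.5, 145.6, 118.3 and 169.7 CPM in those of PGR-B OE. PGR-B OE lay above all control libraries. In PGR-A OE, 3 libraries lay below all control libraries and replicate 4 lay within the range of PGR-B OE. With all 12 libraries the log2 difference was -0.11 in PGR-A OE (SE 0.42, adjusted p = 0.932 by edgeR), 0.97 in PGR-B OE (SE 0.42, adjusted p = 0.508) and 1.07 between the OE groups (SE 0.42, adjusted p = 0.556). Without PGR-A OE replicate 4 it was -0.97 in PGR-A OE against control (SE 0.13, adjusted p = 0.00741 by edgeR) and 1.94 for PGR-B OE against PGR-A OE (SE 0.14, adjusted p = 0.000172). Both then passed, in fits that called 0.594% and 0.198% of all genes. With control replicate 4 left out as well, Abi3bp passed against control in PGR-A OE (adjusted p = 0.0129 by edgeR) and in PGR-B OE (adjusted p = 0.0118), and between the OE groups (adjusted p = 0.000169), in fits that called 0.615%, 0.583% and 0.243% of all genes. The library that carries this dependence is the one with the lowest Prl8a2, the highest Ltf and the highest summed smooth muscle markers. The part of these in the level of Abi3bp was not tested.

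The other genes of this role were Postn, Tnxb, Thbs1 and Thbs2. Tnxb encodes tenascin X, a partner of collagen fibrils, and was at 215 to 267 CPM in control and 263 to 392 CPM in PGR-A OE (log2 difference 0.35, adjusted p = 0.256 by edgeR). Without PGR-A OE replicate 4 its difference was 0.22. Thbs2 had differences of 0.49 in PGR-A OE and 0.32 in PGR-B OE, and its relative Thbs1 of 0.12 and -0.34; both thrombospondins bind and regulate matrix proteins and growth factors. Postn, at 1461 to 3331 CPM over the 12 libraries, had differences of -0.11 and -0.20.

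Of the 7 proteoglycan genes, Fmod and Ogn stood out in opposite directions, and the RefSeq table holds the sequence before the start of both. These 250 bases upstream of each start are shown because the genes belong to the same family, small leucine-rich proteoglycans, and yet differed in sign. Both lie on the plus strand of GRCm38.p6, Fmod at chr1:134037004-134037253 outside any annotated gene and Ogn at chr13:49607765-49608014 within an intron of Cenpp, which runs on the opposite strand. Capitals mark letters of the TATA box motif, found on both strands and overlapping, 229 and 227 bases before the start of Ogn, and the window of Fmod holds none of the motifs searched.
Fmod: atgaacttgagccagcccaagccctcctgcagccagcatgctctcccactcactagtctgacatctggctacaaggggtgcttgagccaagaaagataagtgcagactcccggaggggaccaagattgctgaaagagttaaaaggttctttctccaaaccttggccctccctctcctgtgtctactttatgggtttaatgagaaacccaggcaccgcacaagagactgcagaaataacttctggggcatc
Ogn: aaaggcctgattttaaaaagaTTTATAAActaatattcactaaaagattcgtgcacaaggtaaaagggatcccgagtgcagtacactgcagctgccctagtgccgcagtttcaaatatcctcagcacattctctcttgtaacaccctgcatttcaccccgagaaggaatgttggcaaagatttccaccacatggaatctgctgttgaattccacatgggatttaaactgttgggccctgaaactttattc

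Such windows were found for 23 of the 37 genes, 30 windows in all, and were searched on both strands. The letters of a progesterone response element, GNACA and TGTNC with 3 bases of any kind between them, were in 0 of the 30 windows and in 0.387% of all 32851 promoters of the table. The steroid half-site TGTTCT, which can also be part of the longer element, was in windows of 7 genes (Bgn, Emilin1, Fbln1, Mfap2, Pi16, Sparc and Tnxb), 23.3% of the windows beside 16.1% of all promoters. The AP-1 site TGANTCA was in 1 window, that of Tnxb, 3.33% beside 6.75%. GC boxes (GGGCGG) were in 15 windows of 12 genes, 50% beside 32.7%, TATAAA was in 16.7% beside 12.4%, and CCAAT in 26.7% beside 33.8%. Some genes have several windows, and a match is a match of letters only. RefSeq windows were not matched for Abi3bp, Clec3b, Dcn, Eln, Fbn2, Fn1, Lox, Loxl1, Loxl2, Loxl3, Lum, Mfap4, Mfap5 and Thbs1.

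Fmod (chromosome 1, 134037254 to 134048277) encodes fibromodulin, which binds collagen fibrils and guides their cross-linking. It was at 58.0, 52.6, 59.6 and 63.7 CPM in control tissue, 58.1, 69.8, 48.6 and 136.5 CPM in PGR-A OE tissue and 159.5, 107.8, 92.4 and 111.8 CPM in PGR-B OE tissue. All PGR-B OE libraries lay above all control libraries, and in PGR-A OE only replicate 4 was clearly above them. The mean in PGR-B OE was 2.02-fold that of control (log2 difference 1.01, SE 0.27, adjusted p = 0.233 by edgeR). DESeq2 called it (adjusted p = 0.0184), as did edgeR on only the 8 libraries of these groups, where 0.288% of all genes were called. In PGR-A OE the difference was 0.42 with all libraries and 0.01 without PGR-A OE replicate 4. For PGR-B OE against PGR-A OE it was 0.59 with that library and 1.00 without it (adjusted p = 0.0568 by edgeR).

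Ogn (chromosome 13, 49608046 to 49624501) encodes osteoglycin, also called mimecan. It was at 436.8, 469.2, 461.0 and 356.8 CPM in the control libraries, 266.8, 244.5, 259.2 and 345.8 CPM in those of PGR-A OE and 291.5, 468.0, 276.9 and 302.9 CPM in those of PGR-B OE. The PGR-A OE libraries lay below all control libraries, while in PGR-B OE 3 libraries lay below control and replicate 2 was at the control level. The log2 difference was -0.63 in PGR-A OE (SE 0.17, adjusted p = 0.124 by edgeR) and -0.36 in PGR-B OE (SE 0.17, adjusted p = 0.545). Without PGR-B OE replicate 2 the latter was -0.56 (adjusted p = 0.131 by edgeR). DESeq2 called Ogn lower in PGR-A OE (adjusted p = 0.0173).

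Hspg2 (chromosome 4, 137468769 to 137570630) encodes perlecan, the large heparan sulfate proteoglycan of basement membranes, including those around smooth muscle cells. It was at 1005, 1054, 1052 and 1158 CPM in control tissue, 1353, 1241, 1275 and 1417 CPM in PGR-A OE tissue and 1097, 995.5, 1106 and 1198 CPM in PGR-B OE tissue. The PGR-A OE libraries lay above all 8 others. The log2 difference was 0.31 in PGR-A OE against control (SE 0.09, adjusted p = 0.133 by edgeR), 0.04 in PGR-B OE against control, and -0.27 between the OE groups (PGR-B OE minus PGR-A OE; SE 0.09, adjusted p = 0.451). DESeq2 called it higher in PGR-A OE (adjusted p = 0.00446). The summed smooth muscle markers, in the same way, were highest in the 4 PGR-A OE libraries, and their part in the difference of Hspg2 was not tested. Nid1, whose product nidogen 1 ties laminin to collagen in the same membranes, had differences of 0.12 and 0.15, and its groups overlapped.

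The other proteoglycan genes differed little. Dcn (decorin) was at 1112 to 1598 CPM in the control libraries, 1015 to 1731 CPM in those of PGR-A OE and 1182 to 1652 CPM in those of PGR-B OE, with log2 differences of -0.02 and 0.03 against control. Lum (lumican) had differences of 0.02 and -0.14, Bgn (biglycan) of 0.24 and 0.04, and Vcan (versican, a large hyaluronan-binding proteoglycan) of 0.25 and 0.18. Vcan lay above control in all 4 PGR-B OE libraries, with 84.9 and 85.6 CPM as the nearest pair, but without an unadjusted p under 0.05.

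**Figure D3:**
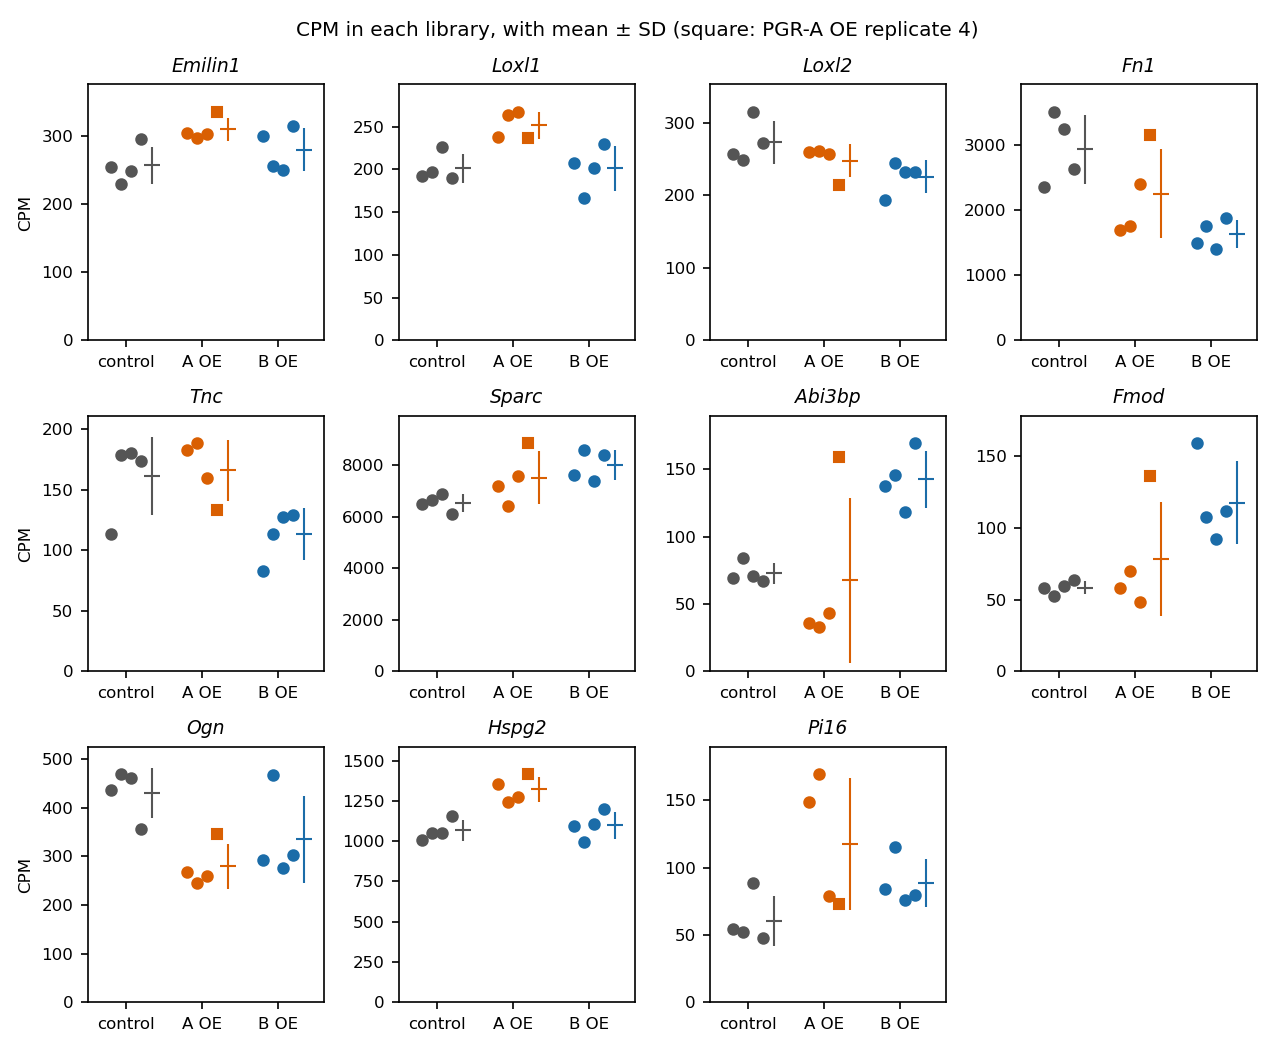
CPM (vertical axes from 0) in each library, with mean ± SD, for the 11 genes named by the rule; A OE and B OE stand for PGR-A OE and PGR-B OE. The square is PGR-A OE replicate 4, which lies apart from its group for Abi3bp (159.3 CPM) and Fmod (136.5 CPM), while Hspg2 and Loxl1 in PGR-A OE lie above all other libraries in each of the 4.

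Several small leucine-rich proteoglycan genes are neighbours in the mouse genome, and their neighbours were examined after the values were seen. Ogn, Omd (osteomodulin), Aspn (asporin) and Ecm2 lie in a row on chromosome 13, inside the span of Cenpp, which runs on the opposite strand, with gaps of 15.2 kb, 14.9 kb and 11.7 kb. Aspn was at 74.9, 115.9, 112.2 and 102.8 CPM in control tissue, 64.5, 65.3, 68.6 and 64.3 CPM in PGR-A OE tissue and 60.3, 113.6, 58.5 and 75.2 CPM in PGR-B OE tissue. Its PGR-A OE libraries lay below all control libraries. Within PGR-B OE replicate 2 was the highest for Aspn, as for Ogn, Omd (7.60 CPM, next 5.17) and Ecm2 (44.6 CPM, next 44.0). The log2 difference of Aspn was -0.63 in PGR-A OE (SE 0.19, adjusted p = 0.163 by edgeR) and -0.40 in PGR-B OE (adjusted p = 0.563). Omd, between Ogn and Aspn, had differences of -0.06 and 0.29, and Ecm2 of 0.19 and 0.23, so the differences from control were not alike along the row. Omd was at a low level, 3.28 to 7.60 CPM over all libraries. Fmod and Prelp are 115.8 kb apart on chromosome 1. Prelp had differences of 0.28 and 0.31 (adjusted p = 0.298 and 0.463 by edgeR). All PGR-B OE libraries of Prelp (296 to 317 CPM) lay above all control libraries (221 to 270 CPM), as for Fmod. An antisense model shares 9.68% of the exon bases of Prelp. Dcn and Lum, 47.0 kb apart on chromosome 10, had the small differences given above.

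**Figure D4:**
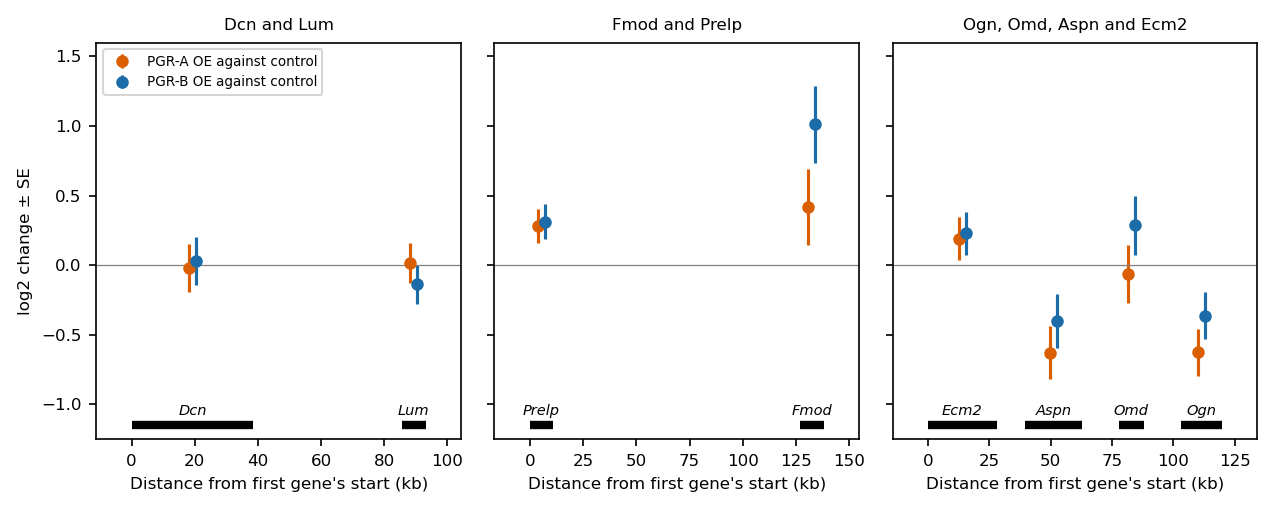
The log2 difference against control (vertical axis, bars ± SE) of neighbouring proteoglycan genes, placed by distance in kilobases from the start of the first gene of each row; black bars show the genes to scale. Ogn and Aspn both have values of -0.63 in PGR-A OE, and Omd between them has -0.06.

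Among the fibroblast markers, Pi16 (chromosome 17, 29317680 to 29330593), which encodes a peptidase inhibitor found in fibroblasts around vessels and in connective tissue sheets, had the largest difference in PGR-A OE. It was at 54.2, 52.5, 88.4 and 47.7 CPM in the control libraries, 149.0, 169.6, 78.8 and 73.4 CPM in those of PGR-A OE and 84.4, 115.3, 75.7 and 80.0 CPM in those of PGR-B OE. Replicates 1 and 2 of PGR-A OE were far above the rest, and the other 2 lay below control replicate 3, so the groups overlapped. The log2 difference was 0.96 in PGR-A OE (SE 0.28, adjusted p = 0.148 by edgeR) and 0.55 in PGR-B OE (SE 0.28, adjusted p = 0.581). DESeq2 called it higher in PGR-A OE (adjusted p = 0.0241), and an antisense model shares 3.49% of its exon bases. Clec3b, which encodes tetranectin, a plasminogen-binding protein, was at 56.7, 35.0, 22.1 and 27.3 CPM in control tissue, 35.6, 39.8, 44.7 and 150.2 CPM in PGR-A OE tissue and 60.5, 70.5, 52.2 and 99.8 CPM in PGR-B OE tissue. Its difference in PGR-A OE was 0.94 with replicate 4 and 0.18 without it, and in PGR-B OE it was 1.00 (SE 0.45, adjusted p = 0.529 by edgeR), with control replicate 1 within the range of PGR-B OE. Gsn (gelsolin, an actin-severing protein that smooth muscle also expresses) reached 1748 CPM in replicate 4 of PGR-A OE, against at most 1013 CPM elsewhere, and its difference in PGR-A OE was 0.44 with that library and 0.13 without it. Dpt (dermatopontin, a collagen-associated protein) and the dipeptidase gene Dpep1 had differences between 0.08 and 0.31, that of Dpt in PGR-A OE being 0.31 with all libraries, 0.17 without PGR-A OE replicate 4 and 0.19 without control replicate 4, and Pdgfra, the receptor gene used as a general fibroblast marker, of -0.10 and -0.06. The summed fibroblast list outside the 37, carried mostly by collagens, was higher in every OE library than in every control library. Each of the 6 fibroblast markers among the 37 overlapped between all groups, with a positive difference from control for 5 of 6 in both OE groups. Dcn and Lum, which are also genes of fibroblasts, overlapped as well, as did Col6a1, Thy1, Cd34 and Ly6a of that list.

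**Figure D5:**
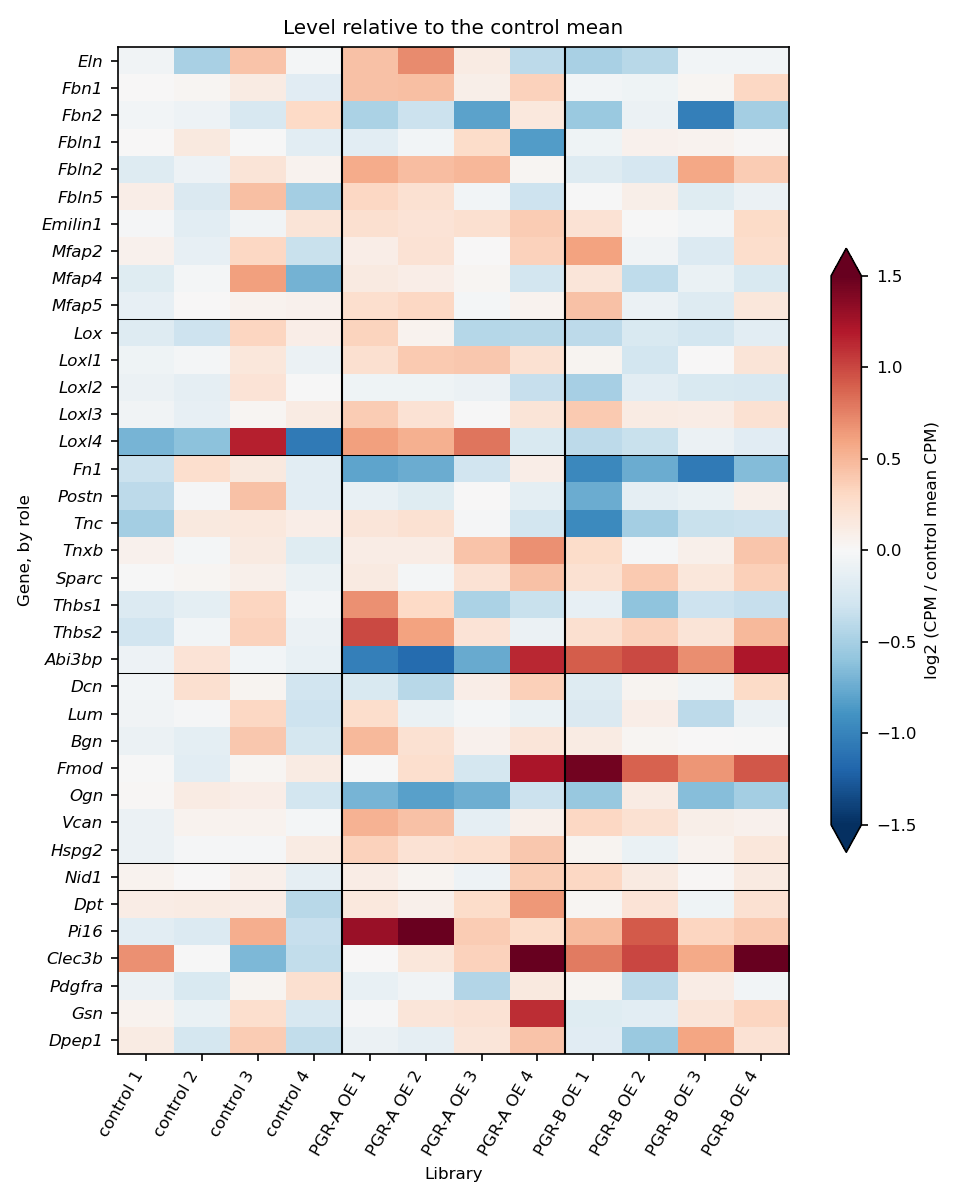
Colour gives the log2 ratio of each gene's CPM in each of the 12 libraries to its control mean, with the genes in order of role; only Clec3b in PGR-A OE replicate 4 lies past the end of the scale. Ogn is below the control mean in all PGR-A OE libraries, and Abi3bp is far above it in PGR-A OE replicate 4 and the 4 PGR-B OE libraries and below it in the other PGR-A OE libraries.

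A second list held other matrix and fibroblast genes of the same pathways (latent TGF-beta binding proteins, further proteoglycans, matrix enzymes and mesenchymal surface markers); 53 of its 55 symbols were in the table and all 53 were tested. In PGR-A OE 1 of 53 passed by edgeR, Vwa1, which encodes a perlecan-binding protein of basement membranes. It rose from 26.9 ± 4.44 to 42.8 ± 6.40 CPM (SD, n = 4; log2 difference 0.67, SE 0.13, adjusted p = 0.0401 by edgeR), with no overlap between the groups, though 25.2% of its exon bases are shared with antisense and other models on the opposite strand, so its counts are uncertain. That is 1 of 53 where 0.655% of all genes were called. At an unadjusted p under 0.05 were 14 of 53, 13 of them higher, or 26.4% beside 15.4% of all genes, and 41 of 53 (77.4% beside 50.1%) had a positive difference, with a median of 0.17 beside 0.00 over all genes. In PGR-B OE 0 of 53 passed by edgeR and 9 had an unadjusted p under 0.05, or 17.0% beside 9.28% of all genes. The 2 with the lowest p were Ltbp1, which encodes a carrier of latent TGF-beta (-0.51, SE 0.14, adjusted p = 0.206), and Matn2 (matrilin 2; 0.61, SE 0.18, adjusted p = 0.288). Between the OE groups none passed by edgeR, and all 11 genes at an unadjusted p under 0.05 were lower in PGR-B OE (20.8% of the 53 beside 8.04% of all genes, 4.76% lower and 3.28% higher), with Ltbp1 (-0.63, adjusted p = 0.172) and Vwa1 (-0.55, adjusted p = 0.210) at the lowest p.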

How the data were processed

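RNA of mouse uterine tissue was sequenced in 12 libraries, 4 a group, as paired-end reads of 75 bp from TruSeq RNA libraries, per the labels' protocols. The deposited table holds raw gene counts as whole numbers, without normalization, beside a gene length that served only for levels per kilobase. The submitters' processing notes name the builds GRCm38 and mm10 and the tools STAR 2.7.0f, Subread 1.6.4, featureCounts, Bowtie2 2.2.5 and DESeq2. What each did, which annotation was counted and how strand and multi-mapping reads were handled is not given in the sources used here, so counts of genes that overlap others are uncertain.

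In R 4.3.3, edgeR 4.0.16 was run on these counts: filterByExpr left 15561 of 24964 genes (4393 had no count), libraries were scaled by TMM, and 1 robust quasi-likelihood fit held all 12 libraries with group as its term. The 3 comparisons were tested, with Benjamini-Hochberg adjustment over all genes tested and a threshold of 0.05. CPM uses the scaled library sizes, and the SE of a log2 difference was obtained from its F statistic. The group and replicate number of a library come from its title. DESeq2 1.42.0, limma 3.58.1 (voom), other scaling, no filter, the 8 libraries compared alone, the replicate number as a block and left-out libraries were tried as alternatives. The fit was tested on simulated data. Within each group no pair of libraries agreed within sampling noise.

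Members and lists were chosen with earlier results of these data known, so no test was made over a list. Named with every library's value were members past the threshold, members whose groups did not overlap at an unadjusted p under 0.05, and the 3 with the lowest p in each comparison; of the second list, genes that passed or else the 2 with the lowest p. Loxl4, Clec3b, Aspn, Omd, Ecm2, Prelp and other members given with values were chosen after their values were seen. Positions and overlaps are from GENCODE M21 on GRCm38, and promoters from RefSeq on GRCm38.p6.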

Additional observations from a re-analysis of the deposited data

Results flagged for a closer look

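In 10 of 111 groups of 4 libraries (37 genes in 3 groups), 1 library lay far from the other 3 by Dixon's ratio of gap to range. The critical value used flags about 1 in 20 groups by chance if values are normally distributed. CPM values need not be, and the share of groups flagged over all genes was not computed. Of the 10, 4 were in PGR-A OE replicate 4: Abi3bp at 159 CPM (nearest 43.2), Clec3b at 150 CPM (nearest 44.7), Gsn at 1747.5 CPM (nearest 942) and Loxl2, below its group, at 214 CPM (nearest 256). In control, Loxl4 was at 28.4 CPM in replicate 3 (nearest 8.24), Pi16 at 88.4 CPM in the same library (nearest 54.2), Tnc at 113.8 CPM in replicate 1 (nearest 173.8) and Dpt at 271 CPM in replicate 4 (nearest 390.0). Lum reached 570 CPM in replicate 1 of PGR-A OE (nearest 465), and Ogn at 468 CPM in PGR-B OE replicate 2 (nearest 303).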

How the results depend on the processing

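No member passed by edgeR with all 12 libraries, so the alternatives could only add calls. Neither the other scaling, no filter on low counts, limma voom nor the replicate block added one. DESeq2 gave 2 members higher (Hspg2 and Pi16) and 1 lower (Ogn) in PGR-A OE against control, and 1 higher (Fmod) and 1 lower (Fn1) in PGR-B OE against control. A fit of only the 8 libraries compared gave 2 higher (Abi3bp and Fmod) in PGR-B OE against control. When 1 library was left out, members higher in PGR-A OE against control ran from 0 to 1 (Loxl4, without control replicate 3) and members lower from 0 to 1 (Abi3bp, without PGR-A OE replicate 4), members higher in PGR-B OE than in PGR-A OE from 0 to 1 (Abi3bp, without PGR-A OE replicate 4), and the other counts were 0. The median of the 37 then ran from 0.13 to 0.26 in PGR-A OE against control, from -0.017 to 0.14 in PGR-B OE against control and from -0.19 to -0.095 between the OE groups. With PGR-A OE replicate 4 and control replicate 4 both left out, 1 member was lower in PGR-A OE (Abi3bp), 2 were higher (Abi3bp and Fmod) and 1 lower (Fn1) in PGR-B OE against control, and 1 was higher in PGR-B OE than in PGR-A OE (Abi3bp), where 0.615%, 0.583% and 0.243% of all genes were called in the same order, and the median in PGR-A OE was 0.058. Beyond the samples and genes in each fit, the cause of these moves was not tested. In the comparisons for which the rule named them, the 11 named members kept their sign under all of these alternatives. The rule took members whose groups did not overlap or whose p was lowest. A kept sign was therefore largely set in advance and is no separate check on them.

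The replicate numbers were checked for pairing: of 12 same-numbered pairs 2 had correlated deviations over 0.1 (r from -0.24 to 0.17), and 2 libraries correlated best with their own number, so the numbers were not taken to pair libraries. With the replicate block, calls over all genes were 69, 32 and 11 in place of 102, 48 and 18 in the 3 comparisons, 0 members passed in each, and the medians of the members were 0.18, 0.04 and -0.14. With 31872534 to 33078483 counts a library, libraries of the same group differed by a chi-square of at least 20.9 per gene over all genes, far above counting error. Loxl4, at 6.07 to 28.4 CPM, has the fewest counts behind it of the 37.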

Other observations

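Ratios between related genes within a library do not depend on its size. They were chosen with the values known and are given as a description, with no test. Of 7 ratios examined, 2 did not overlap control in either OE group. The share among ratios of other gene pairs was not computed, so this count has no background to be set beside. Fmod and Ogn already differed from control in opposite directions, so the separation of their ratio follows in part from that choice. Per kilobase, Thbs1 was 2.86 to 3.24 times Thbs2 in control, 1.92 to 2.58 times in PGR-A OE and 1.59 to 2.38 times in PGR-B OE, so neither OE group overlapped control, although the single genes overlapped. The ratio of Fmod to Ogn was 0.0912 to 0.145 in control, 0.153 to 0.321 in PGR-A OE and 0.187 to 0.445 in PGR-B OE, again without overlap with control. By contrast Dcn over Bgn (0.843 to 1.43 in control, 0.664 to 1.23 in PGR-A OE and 0.874 to 1.34 in PGR-B OE) and Fbn1 over Fbn2 (7.09 to 12.7, 11.2 to 18.6 and 9.95 to 20.4) overlapped between the groups, as did Lox over Loxl4 (14.0 to 56.0, 10.7 to 22.1 and 22.0 to 27.1), Fbln1 over Fbln5 (26.2 to 46.6, 24.9 to 44.7 and 34.6 to 42.5) and Lox over Loxl1 (0.798 to 1.10, 0.544 to 1.03 and 0.715 to 1.00).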
